A study of Rattus norvegicus with 5 samples.

Results

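*Abcg1*, *Abcg5*, *Abcg8* and *Scarb1* code for proteins that move sterols across the membranes of enterocytes and other cells. Their expression was followed under calorie restriction (CR) in male Wistar rats, in RNA of the small intestine. Every gene probe (a probe set of the Affymetrix array) that the array annotation assigns to 1 of these 4 genes was taken, weak ones included and marked as weak, which gave 7 of the 15866 gene probes without the array controls. The genes were selected on the signal ratios of these same arrays to the control array, known from earlier work on them, so those ratios are given as a description and carry no test. The rats were put on the diets at 6 weeks of age, were housed singly and ate the powdered AIN-93G diet. For 1 month the control group received all of a previously recorded intake, and the other groups received 5, 10, 20 or 30% less. All rats were dissected after a 16 h fast, RNA was pooled from 5 rats per group, and each pool was hybridized to 1 array. A level of CR therefore has no replicate, the sources used here do not give the segment of the intestine, and fewer cells of a type and less RNA per cell cannot be told apart in whole tissue.

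Dietary and biliary cholesterol enters enterocytes at the brush border, and part of it is pumped back. *Abcg5* and *Abcg8* code for the partners of a heterodimer, sterolin-1 and sterolin-2, which returns plant sterols and cholesterol from the enterocyte to the gut lumen and, in liver, to bile. *Abcg1* codes for a related transporter that moves cholesterol toward high-density lipoprotein (HDL) and is well known from macrophages. *Scarb1* codes for the HDL receptor SR-B1, which exchanges cholesterol between cells and lipoproteins. The nuclear receptors LXR, which sense oxysterols, are known to induce the ABC transporters, and SREBP-2 drives cholesterol synthesis and uptake when sterols run short.

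*Abcg5* and *Abcg8* lie head to head on the rat genome. The start sites of their RefSeq models point away from each other across chr6:15717731-15717935 (GRCr8, plus strand), a stretch of 205 bases with a GC content of 52.2%. It is printed because it is the whole sequence between the starts of the 2 genes whose signals are compared next. Capitals mark the GATA core GATAA, the TATA box TATAAA and the CCAAT box, here on the minus strand as ATTGG.

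Abcg8-Abcg5: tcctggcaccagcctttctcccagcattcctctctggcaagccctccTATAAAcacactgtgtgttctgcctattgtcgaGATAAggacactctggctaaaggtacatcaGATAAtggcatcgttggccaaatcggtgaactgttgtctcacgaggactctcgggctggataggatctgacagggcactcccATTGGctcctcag

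Both strands were searched. GATAA occurred 2 times, 125 and 95 bases before the *Abcg5* start, and 26.5% of the 33469 promoter windows of 300 bases in the same RefSeq table hold it on either strand. TATAAA occurred 1 time, 158 bases before the *Abcg5* start (14.2% of windows), and CCAAT 1 time on the minus strand, 13 bases before it (37.5%). The hexamer AGGTCA, which LXR and LRH-1 can bind, was not among these letters (16.2% of windows). Of the start sites in the table, 6.02% lie as close to one on the opposite strand in this divergent layout. A match of letters is no evidence of binding. The table held a window for 2 of the 4 genes, *Abcg5* and *Abcg8*; those of *Abcg1* and *Scarb1* are not analysed here.

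**Figure D1:**
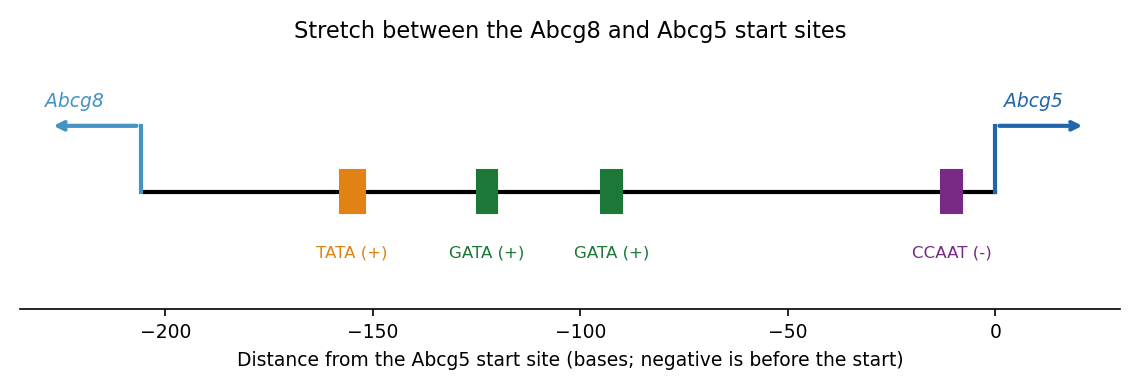
Map of the 205 bases between the *Abcg8* and *Abcg5* start sites, drawn to scale by distance from the *Abcg5* start; arrows show the direction of each gene and boxes the letter matches with their strand. The 2 GATA cores lie 125 and 95 bases before the *Abcg5* start.

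*Abcg5* was higher than in the control at every level of CR, most at 20%. At its single gene probe, 1369455_at, the signal (MAS5 intensity, linear scale) was 35.5 in the control and, at 5, 10, 20 and 30% CR, 65.6, 62.0, 92.4 and 50.4. The 20% CR array stood above the others and the control array below all of them. The log2 ratios to the control were 0.89, 0.80, 1.38 and 0.51, a mean of 0.89 with an SD over the levels of 0.36. The limma standard error of that mean was 0.32. It is moderated: it draws on the spread of all kept gene probes besides the 3 residual degrees of freedom of the fit. It also takes the spread of the 1 control pool to be that among the CR pools. The mean corresponds to 1.86-fold. The spread among the CR levels, 0.87 from the lowest to the highest, was nearly as large as the mean itself.

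*Abcg8*, the partner in the heterodimer, had smaller ratios than *Abcg5* at every level, all above 0. Its single gene probe, 1369440_at, is weak, with signals of 25.9 on the control array and 32.0, 28.8, 35.3 and 29.5 at the 4 levels. As for *Abcg5*, the control array was lowest, the 20% CR array highest and the 5% CR array next. The log2 ratios were 0.31, 0.15, 0.45 and 0.19 (mean 0.27, SD over the levels 0.13), or 1.21-fold. The log2 ratio of *Abcg5* exceeded that of *Abcg8* by 0.62 in the mean of the levels (SD 0.25, range 0.32 to 0.93). Both sets of ratios share 1 control array. All 5 signals of *Abcg8* lay below the signal filter of 46.5, where ratios scatter widely: among the 7933 gene probes under the filter, the mean log2 ratio of the CR arrays ran from −1.60 to 1.83 between the 5th and 95th percentiles.

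*Abcg1* was higher at every level at its brightest gene probe, 1368103_at, and its other gene probes did not follow it closely. Brightest here means the highest mean log2 signal over all 5 arrays, the CR arrays included. On the control array alone the weak gene probe 1387054_at was brighter, at 26.3 against 23.2. The choice of 1368103_at therefore rests on the CR arrays, where it is high. At 1368103_at the control signal was 23.2, and those at 5, 10, 20 and 30% CR were 75.2, 81.3, 68.1 and 85.6. The 4 CR arrays lay close together, all far above the control array. The log2 ratios were 1.70, 1.81, 1.55 and 1.88 (mean 1.74, SD over the levels 0.14, limma standard error 0.24), which corresponds to 3.33-fold. With 13 added to every signal before the logarithm the mean was 1.32.

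The weak gene probe 1373995_at of *Abcg1* had signals of 8.7 on the control array and 18.1, 19.8, 9.7 and 15.1 at the 4 levels. It was thus higher at 5, 10 and 30% CR and close to the control at 20%, with log2 ratios of 1.06, 1.19, 0.16 and 0.80. The weak gene probe 1387054_at, which the annotation ties to the same sequence accession as the brightest, had 26.3 on the control array and 27.5, 26.9, 12.4 and 22.5. Here the CR arrays were level with or below the control, with log2 ratios of 0.06, 0.03, −1.08 and −0.23. The difference in log2 ratio between the brightest and this gene probe was 2.04 (SD over the levels 0.45). Averaged over all 3 gene probes, *Abcg1* had a mean log2 ratio of 0.74. Which of them reports the transcript best was not tested.

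*Scarb1*, the HDL receptor, had ratios on both sides of 0 at both of its gene probes, which were well above the filter on all arrays. At 1386956_at the control signal was 174.3, followed by 205.6, 157.8, 197.8 and 143.7 with rising CR. At 1367855_at it was 152.6, then 157.9, 139.5, 174.4 and 144.3. On both, the 5 and 20% CR arrays lay above the control and the 10 and 30% CR arrays below it. The log2 ratios were 0.24, −0.14, 0.18 and −0.28 at the first (mean −0.00031, SD over the levels 0.25) and 0.05, −0.13, 0.19 and −0.08 at the second (mean 0.0079, SD 0.14). The sign of the first mean turned with the scaling, at 0.0076 after quantile normalization and −0.0019 after median centring. The limma standard errors of the means were 0.22 and 0.19, which are not limits of detection. On simulated data the limma comparison recovered 46.5% of log2 changes of 1. Differences of either sign, also ones larger than these standard errors, could therefore go undetected with these arrays.

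**Figure D2:**
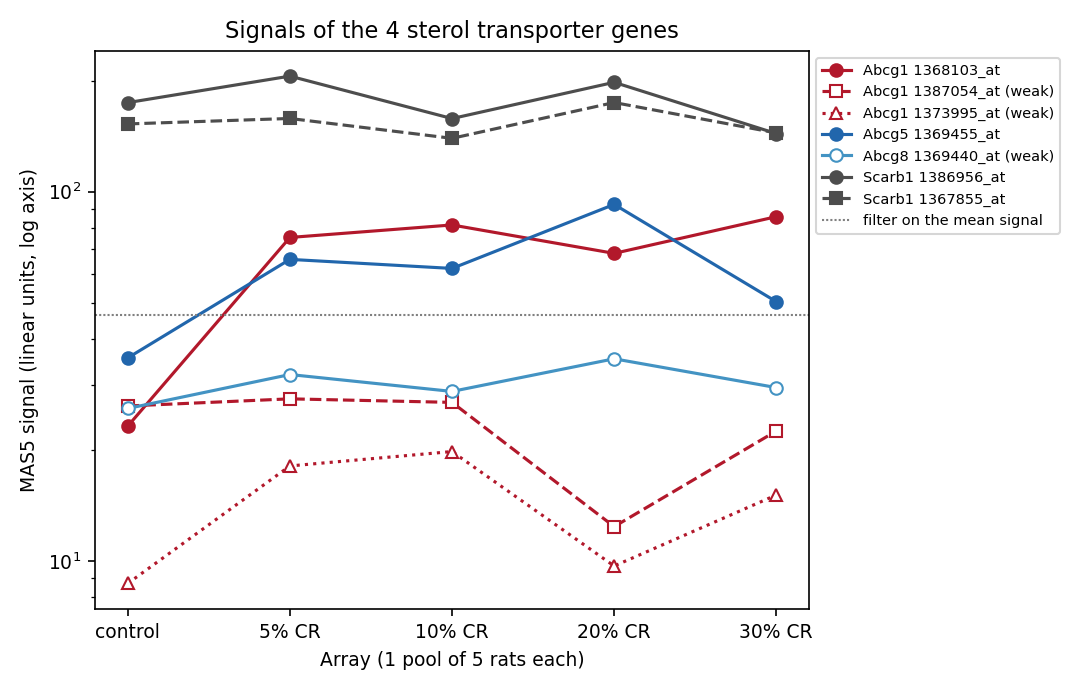
MAS5 signal (log axis) of the 7 gene probes of *Abcg1*, *Abcg5*, *Abcg8* and *Scarb1* on the 5 arrays, each a single pool of 5 rats with no error bar; open symbols are weak gene probes and the dotted line is the filter on the mean signal, 46.5. *Abcg1* at 1368103_at and *Abcg5* cross the line between the control and the CR arrays.

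Of the 7 gene probes, 7 were higher than the control at 5% CR, 5 at 10%, 6 at 20% and 4 at 30%. Of all kept gene probes, 50.8, 51.1, 45.5 and 50.1% were higher at these levels. The 4 gene probes that passed the filter (mean log2 signal of at least 5.54) were 1368103_at of *Abcg1*, that of *Abcg5* and both of *Scarb1*. *Abcg1* and *Abcg5* had control signals below the filter and passed through their CR arrays. A log2 ratio of at least 1 was reached by 1 of the 4 at 5% CR, where 0.366% of all kept gene probes did so, by 1 at 10% (0.454%), by 2 at 20% (0.504%) and by 1 at 30% (0.744%). *Abcg1* was the one at each level, joined by *Abcg5* at 20%. A log2 ratio of at least 0.5 at all 4 levels was found for *Abcg1* and *Abcg5*, 2 of the 4, and for 0.769% of all kept gene probes. Since these ratios chose the genes, the counts are given for scale alone. No order by the level of CR was seen in the signals of the 7 gene probes: the highest was at 30, 10 and 5% CR for 1368103_at, 1373995_at and 1387054_at of *Abcg1*, at 20% for *Abcg5* and *Abcg8*, and at 5 or 20% for the *Scarb1* gene probes. *Abcg4*, the other ABCG gene named on the array and looked up after the values were seen, had signals of 123.9 on the control array and 104.2, 116.3, 110.3 and 124.0 at the 4 levels, a mean log2 ratio of −0.13.

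**Figure D3:**
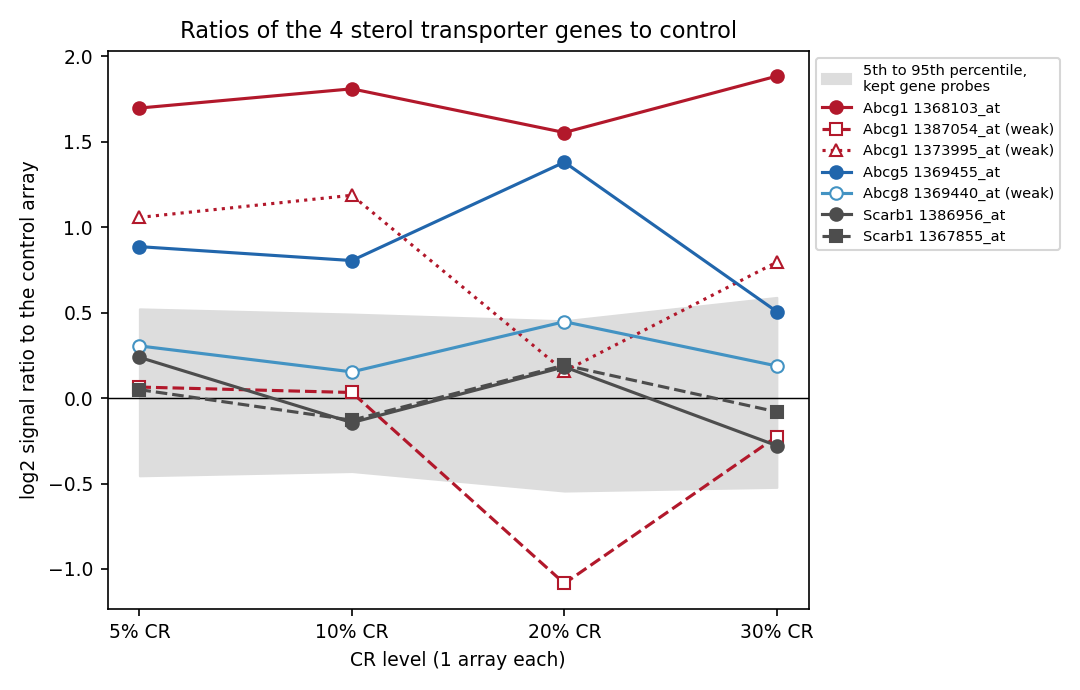
Log2 signal ratio of each CR array to the control array for the same 7 gene probes; each point is 1 array and the grey band holds the kept gene probes from the 5th to the 95th percentile. *Abcg1* at 1368103_at lies between 1.55 and 1.88 at all 4 levels, while both *Scarb1* gene probes stay inside the band.

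Markers of cell types differed between the arrays as well. Enterocyte markers were bright: 15 of the 18 listed were named on the array, all 15 passed the filter, and their signals summed to 23802 in the control and, with rising CR, to 25252, 25172, 31545 and 26050. Bright markers weigh most in such a sum, and they did not all go the same way. The fatty acid-binding protein genes *Fabp1* (4064.7 in the control, 5205.2 to 6468.2 under CR) and *Fabp2* (983.8, and 1805.8 to 2382.9) were higher. *Rbp2*, the brightest marker on the control array, was lower at every level (4553.2, and 3732.7 to 4518.5). The median log2 ratio of the 15 was −0.09, −0.12, 0.36 and −0.0052 with rising CR, and 8 of them were above and 7 below 0 in the mean. Sum and median were highest at 20% CR, the array with the highest *Abcg5* and *Abcg8* signals and with a beta-actin 3' to 5' ratio, a measure of RNA integrity, of 3.18 against 2.20 to 2.41 on the others. The *Gapdh* 3' to 5' ratio was 1.27 at 20% CR and 1.21 to 1.40 on the others, so the array did not stand apart by it. Less the median log2 ratio of these markers at each level, the log2 ratios of *Abcg5* were 0.97, 0.93, 1.02 and 0.51 (mean 0.86, SD 0.23), those of *Abcg8* 0.39, 0.28, 0.09 and 0.19, and those of *Abcg1* 1.78, 1.93, 1.19 and 1.89. Relative to the enterocyte markers, *Abcg5* no longer stood out at 20% CR from 5 and 10%, and *Abcg8* was lowest there. *Scarb1* at 1386956_at had 0.32, −0.02, −0.18 and −0.27 on that scale, lower at each step of CR, an order that its signals do not have. The other gene probe of *Scarb1*, 1367855_at, does not share this order. From 20 to 30% CR its log2 ratio fell from 0.19 to −0.08, and the marker median fell further, from 0.36 to −0.0052.

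Macrophage markers, 11 of 16 named and 9 of them kept, summed to 4222 on the control array and 4686, 5940, 4781 and 4573 at the 4 levels. The weak ones were *Itgam*, at 2.6 to 7.6, and *Cx3cr1*, with 1.3 on the control array and 17.8, 11.9, 1.0 and 19.7 under CR. *Lyz2*, a lysozyme gene, made up 2242.8 of the control's sum. In the mean log2 ratio 8 of the 9 kept markers were above and 1 below 0. At 20% CR the sum was above the control. Ratios ran from −0.43 (*Aif1*) to 0.35 (*Csf1r*) there, and the median log2 ratio of the kept markers was −0.06. Less their median, *Abcg1* had log2 ratios of 1.59, 1.63, 1.62 and 1.74 (mean 1.64). Exocrine pancreas markers went with the control array: the 9 weak ones of 10, among them *Prss1* (trypsinogen) and *Ctrb1* (chymotrypsinogen), summed to 612.7 there and to 224.7, 84.5, 99.5 and 104.4 at 5, 10, 20 and 30% CR, and 9 of 9 were lower on every CR array. The tenth and only kept one, *Cela1* (an elastase), did not follow them, with 214.5 on the control array and 149.5, 245.8, 207.0 and 184.5 on the CR arrays. The control pool differs from every CR pool in the signal of the 9 weak markers as well as in diet, and its part in the ratios of *Abcg1* and *Abcg5* was not tested. Of the 8 distal markers named, the ileal bile acid genes *Slc10a2* and *Fabp6* were weak on all arrays. The 3 kept ones, *Amn*, *Ctsz* and *Enpp3*, had signals of 56.0, 552.4 and 337.9 on the control array. The segment of the intestine was not tested.

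**Figure D4:**
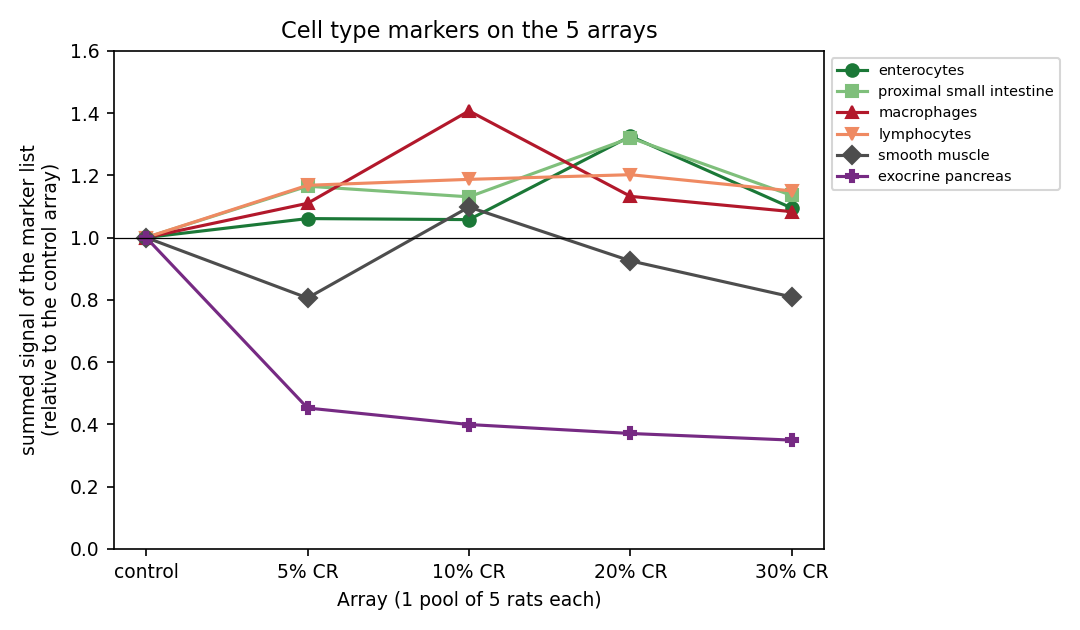
Summed signal of 6 marker lists, in which bright markers weigh most, on each array relative to the control array (1 by definition); each point is 1 pool of 5 rats. The enterocyte list is highest at 20% CR, at 1.33 of the control, and the exocrine pancreas list lies between 0.349 and 0.452 on the CR arrays.

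Other genes of sterol handling lay on both sides of 0. Of 115 genes on 5 lists, 88 were named on the array and 66 passed the filter; 34 were above and 32 below 0 in the mean log2 ratio, with a median of 0.0028 against −0.0057 for all kept gene probes. When the control pool was set against all 4 CR pools in limma, 0 of the 66 passed an adjusted p of 0.05, as did 0% of all 7933 gene probes, and 7 had an unadjusted p below 0.05 (378 of all gene probes). That fit takes the spread of the 1 control pool to be that among the CR pools. A log2 ratio of at least 0.5 at all 4 levels was found for 1 of the 66, *Mylip* (0.769% of all kept gene probes).

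Among LXR, its partners and its other targets, 8 of 16 kept genes lay above and 8 below 0 in the mean log2 ratio (median 0.0033). *Mylip*, an LXR target that codes for a ubiquitin ligase, had signals of 34.7 on the control array and 65.7, 70.5, 54.7 and 71.2 at the 4 levels. As at 1368103_at of *Abcg1*, all CR arrays lay above the control and the 20% CR array was the lowest of the 4 (mean log2 ratio 0.91, SD 0.18, adjusted p = 0.807 in limma). Its control signal lay below the filter. *Nr0b2*, the corepressor SHP, had signals of 86.8 on the control array and 42.2, 55.8, 62.4 and 55.9 (mean log2 ratio −0.70, SD 0.24, adjusted p = 0.976). The glucose sensor *Mlxipl* had a mean of −0.51 and the LXR partner *Rxrb* −0.43. The receptors themselves lay near 0 in the mean, with −0.07 for *Nr1h2* (LXR beta) and 0.06 for *Nr1h3* (LXR alpha). *Srebf1*, another LXR target, had a mean of 0.05 but ran from −0.24 at 10% CR to 0.49 at 30% (SD 0.33). The weak other gene probes of *Nr1h2* and *Srebf1* had means of −0.75 and 0.36. *Abca1* is not analysed here.

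Of the regulators and partners known for *Abcg5*, *Abcg8* and *Scarb1*, 5 of 10 kept genes were positive and 5 negative (median 0.00074). *Pdzk1*, the scaffold that holds the SR-B1 protein at the membrane, had signals of 188.4 in the control and, with rising CR, 313.6, 271.0, 425.7 and 197.0. The order of its arrays was that of *Abcg5*, 20% highest and the control lowest (mean log2 ratio 0.63, SD 0.46, adjusted p = 0.988). The related scaffold *Slc9a3r1* had a mean of 0.48 (adjusted p = 0.974), also highest at 20% CR. *Hspa5*, an endoplasmic reticulum chaperone, had −0.31 and *Scarb2*, the lysosomal relative of *Scarb1*, −0.30. The nuclear receptors *Nr5a2* (LRH-1), with signals of 4.0 to 14.4, and *Hnf4a*, with 28.4 to 49.0, were weak.

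On the chylomicron and HDL route, 10 of 11 kept genes had a positive mean log2 ratio (median 0.06), as did 49.1% of all kept gene probes, and 6 of the 10 means were at most 0.06. The list median was 0.04, 0.05, 0.43 and −0.11 with rising CR. The summed signal of the list was 1.05, 0.958, 1.51 and 0.941 of the control, and that of the enterocyte markers 1.33 at 20% CR. *Apoa4*, an apolipoprotein of chylomicrons, had signals of 733.4 on the control array and 1200.1, 986.9, 1623.1 and 773.6 at the 4 levels (mean log2 ratio 0.59, SD 0.45, adjusted p = 0.988), in the order of *Abcg5*. The fatty acid transporter *Cd36* had a mean of 0.58, *Apoe* 0.34 and *Sar1b*, needed to export chylomicrons, 0.21. None of these passed the test.

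Of the genes of sterol uptake, efflux and transport within the cell, 4 of 10 were positive and 6 negative (median −0.0088). *Osbp*, an oxysterol-binding lipid exchanger, had a mean log2 ratio of −0.39, *Stard3* 0.15, *Pitpna* 0.15 and *Cav1*, the caveolar coat protein, 0.09. The other kept gene probe of *Cav1* had −0.23, and the mean of both was −0.07, so its direction is not settled. The uptake transporter *Npc1l1* and the esterifying enzyme *Soat2* are not analysed here. Of SREBP-2, its targets and the enzymes of cholesterol synthesis, 8 of 20 were positive and 12 negative (median −0.04). *Ebp* had −0.35 and *Dhcr7* −0.29, while *Hsd17b7* had 0.35 and *Sqle*, squalene epoxidase, 0.28; *Srebf2* itself had −0.06.

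**Figure D5:**
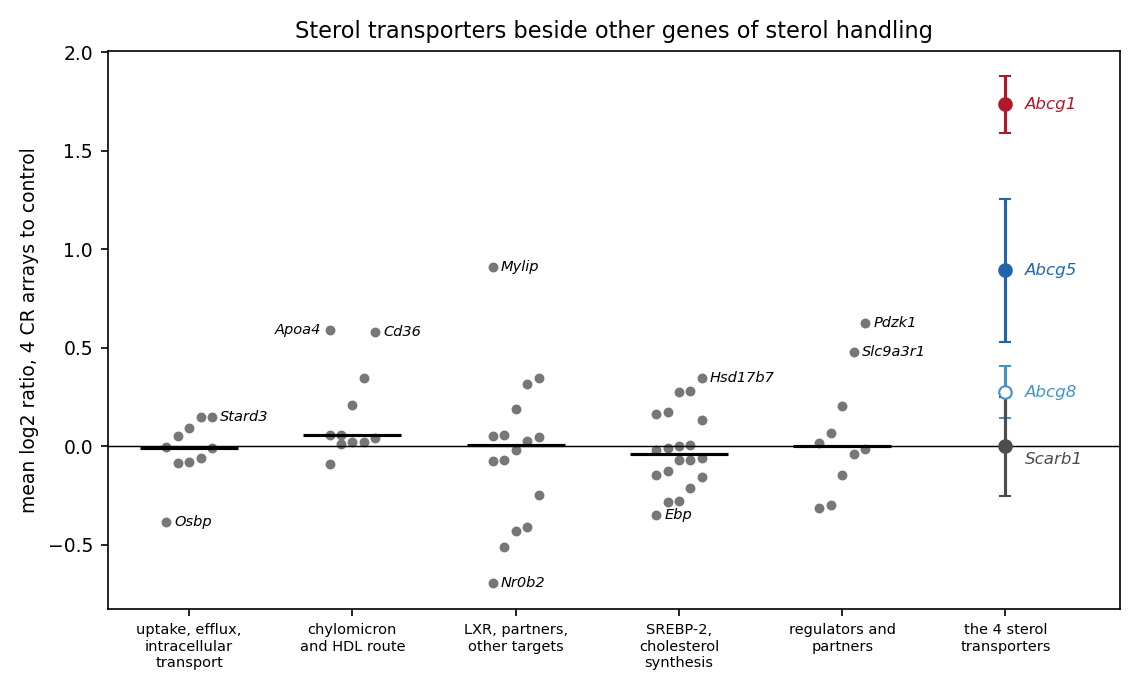
Mean log2 ratio of the 4 CR arrays to the control array for the kept genes of 5 sterol lists (grey points, 1 per gene, with the list median as a bar) and for the brightest gene probe of the 4 transporters (points with the SD over the 4 levels; *Abcg8* is weak and drawn open). The list medians lie between −0.04 and 0.06, and *Mylip*, at 0.91, is the highest of the listed genes.

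The gene probes whose 4 log2 ratios lay nearest to those of each transporter were found among the other kept ones with 1 gene name, by the root mean square difference over the 4 levels. For *Abcg1* they were *Vars1*, a valyl-tRNA synthetase (0.32), the clock repressor *Per2* (0.38) and *Pck1*, of gluconeogenesis (0.40), all with smaller mean ratios, of 1.40 to 1.47. For *Abcg5* they were *Tnrc6c* (0.18), *Tmem45b* (0.19) and the rhythmic deubiquitinase *Usp2* (0.20). Like *Abcg1* and *Abcg5*, the genes *Vars1*, *Pck1* and *Tnrc6c* had control signals below the filter, of 21.4, 27.1 and 32.9. They were kept through their CR arrays, so part of the likeness comes from the filter. *Per2* and *Tmem45b*, at 77.0 and 74.1 on the control array, lay above it. *Usp2* had a control signal of 66.4, and 110.1, 129.4, 200.8 and 111.9 with rising CR, likewise highest at 20%. For *Abcg8* the nearest were *Snx3* (0.03), *Commd9* (0.05) and *Paqr7* (0.05), and for *Scarb1* *Pld1* (0.06), *Reg1a* (0.06) and *Ptrh2* (0.07). With small ratios many gene probes come this near, and all ratios share the control array.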

How the data were processed

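The deposited values are MAS5 signals (intensity on a linear scale) that the authors computed with the GeneChip Operating Software and scaled to a common trimmed mean; the sources used here do not give the target. MAS5 subtracts mismatch signal, so ratios of weak signals scatter widely, and scaling removes differences in total RNA. Array medians lay between 44.9 and 49.0, and log2 signals correlated at 0.931 to 0.952 between arrays; the number of arrays, 1 per level, limits the precision.

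Signals below 0.1 were set to 0.1 before log2. Without the 57 array controls, of 15866 gene probes, 12783 carry 1 gene name, 312 several and 2771 none used here; no name was taken from the last 2 kinds. Gene probes whose mean log2 signal reached its median over all gene probes (5.54, a signal of 46.5) were kept, 7933 in all, and the others are called weak. Each list took 1 gene probe per gene, the brightest. Differences are log2 ratios to the control array. For the list genes, the control pool was set against all 4 CR pools in limma 3.58.1 (R 4.3.3; two-sided, lmFit and eBayes with an intensity trend, p-values adjusted by Benjamini-Hochberg over all kept gene probes, threshold 0.05). On simulated data with 200 changed of 7933 gene probes, log2 changes of 1 and 2 were recovered for 46.5% and 93.5% in this comparison (4 and 9 false calls).

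The genes, lists and tests were chosen with earlier results of these data and the paper known. Named genes are all gene probes of the 4 transporters, the 4 kept genes per sterol list with the largest absolute mean ratio, 12 receptors, enzymes and partners fixed by name, the 3 nearest patterns per transporter, and markers a result turns on; *Abcg4* was added after its values were seen. Lists covered 5 groups of sterol genes and markers of enterocytes, proximal and distal intestine, macrophages, lymphocytes, smooth muscle, endothelium, adipocytes, exocrine pancreas and blood. The median of the mean log2 ratio was 0.09 for kept proximal markers, 0.10 for distal, 0.30 for lymphocytes, −0.12 for smooth muscle, 0.04 for endothelium and 0.29 for adipocytes, with 1 kept marker each for exocrine pancreas (−0.15) and blood (−0.27). Promoter windows and gene positions come from RefSeq (GRCr8). The alternatives tried were 2 normalizations (quantile, median centring), 13 added to each signal (their 25th percentile), no signal filter or one at quantile 0.75, no intensity trend, all gene probes of a gene, each CR pool left out in turn and, chosen after seeing the data, ratios relative to enterocyte or macrophage markers. Figures were drawn with matplotlib 3.10.9.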

Additional observations from a re-analysis of the deposited data

How the results depend on the processing

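The mean log2 ratios were 0.71 to 1.02 for *Abcg5*, 0.19 to 0.31 for *Abcg8* and −0.08 to 0.09 for *Scarb1* under the alternatives run. With the normalizations, the added constant, enterocyte markers as reference or, for *Scarb1*, all gene probes, they moved by less than the SD over the levels. With a CR pool left out this was certain, since dropping a level cannot shift the mean of the levels by their SD. The runs without a pool therefore do not test it. The mean log2 ratio of *Abcg1* lay between 1.64 and 1.80 under the 2 normalizations, relative to either marker list and without a CR pool. It was 1.32 with the added constant and 0.74 over all its gene probes. Counts of gene probes higher by a log2 ratio of 1 at 5, 10 and 30% CR were 15, 16 and 21 with the added constant (29, 36 and 59 without it). At 5, 10, 20 and 30% CR they were 1144, 1434, 1377 and 1319 without the filter, and 6, 5, 14 and 12 with the stricter one, which tests fewer gene probes. Those higher by 0.5 at all levels numbered 37 with the constant, 693 without the filter, 16 with the stricter one, and 68 to 117 with a CR pool left out, where fewer levels must reach 0.5 (104 without the 10% CR pool, 117 without the 20%; 61 in all). Limma called 0 gene probes under every setting except without the 30% CR pool, where 3 passed, none of the 66 sterol genes among them. An unadjusted p below 0.05 was found for 378, for 806 without the filter, 164 with the stricter one and 237 to 674 with a CR pool left out (237 without the 5% CR pool, 674 without the 20%). Of the list medians, that of LXR and its targets was −0.068 with the stricter filter (0.0033 as reported). The cause was not tested. No paired analysis was possible because each pool got a single diet, and the control pool, the only one without CR, cannot be left out.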
